A study of Mus musculus with 2 samples.

Results

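Peaks of the DNA-binding protein CTCF at bidirectional promoters of protein-coding genes were examined in newborn mouse midbrain. A bidirectional promoter was taken as a divergent pair: a gene on the minus strand whose 5′ end lies upstream of that of a gene on the plus strand, with the outermost 5′ ends of the genes at most 1 kb apart in GENCODE vM21. A peak belonged to the set when its summit lay within 1 kb of both 5′ ends. On chromosomes 1 to 19 this gave 475 peaks, out of 66972 optimal peaks on these autosomes and 68603 in all. They lay at 403 of 734 divergent pairs, a share of 54.9% (95% Wilson interval 51.3 to 58.5%). Within the optimal list, position alone chose the set. That list had itself been filtered on how well peak ranks repeat, as had the peaks it was compared with, so signal and replicate agreement are seen here only above that filter.

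The data are chromatin immunoprecipitation followed by sequencing (ChIP-seq) with a CTCF antibody on midbrain from B6NCrl mice on postnatal day 0, without treatment or genetic change named in the labels. There was 1 group of 2 replicates, sex was not collected, and the labels list a single biosample and donor for the pair of replicates, so their spread may be technical. Peak calling used a control alignment, and the optimal list had been filtered by IDR (irreproducible discovery rate), a measure of how well the ranks of peaks repeat. Read depth is unknown, so a pair without a peak is one where none was listed, and intervals cover counting error only. Peak lists hold no expression values, so the tissue label could not be checked against marker genes.

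Divergent gene pairs share one stretch of open DNA from which transcription leaves in both directions. Such promoters are commonly rich in CpG dinucleotides and often serve housekeeping genes of mitochondria, DNA repair and RNA metabolism. CTCF recognises a long DNA motif that has a direction through its zinc fingers, and with cohesin it holds chromatin loops and domain borders in place.

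The sequences of 6 of the 10 strongest peaks of the set show the CTCF motif and where it sits relative to the gene pair. They are given 5′ to 3′ from the GRCm38.p6 RefSeq genome (build mm10), each pair named with its minus-strand gene first. The first 3 are whole stretches between both 5′ ends on the plus strand. In them, capitals mark the bases matching a 20 bp CTCF matrix learned from strong autosomal peaks of the whole optimal list. These 3 stretches lie at chr8:104534638-104534688, chr1:143777069-143777271 and chr5:34660149-34660378.
Nae1/Car7: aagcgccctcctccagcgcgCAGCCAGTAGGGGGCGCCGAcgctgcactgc
Trove2/Uchl5: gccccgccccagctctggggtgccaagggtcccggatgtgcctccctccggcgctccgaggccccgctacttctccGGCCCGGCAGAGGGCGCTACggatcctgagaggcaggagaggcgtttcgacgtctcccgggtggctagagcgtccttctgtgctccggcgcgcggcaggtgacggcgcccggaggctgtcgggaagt
Nop14/Grk4: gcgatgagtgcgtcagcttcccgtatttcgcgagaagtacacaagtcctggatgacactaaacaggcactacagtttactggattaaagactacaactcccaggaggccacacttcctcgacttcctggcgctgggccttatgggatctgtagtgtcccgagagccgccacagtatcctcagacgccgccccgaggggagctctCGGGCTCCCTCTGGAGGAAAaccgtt
In the next 3 the motif lies inside a gene, and the 20 matching bases alone are given, on the strand that matches. They lie at chr19:40612411-40612430 (plus strand), chr11:69579435-69579454 (minus strand) and chr1:191575989-191576008 (minus strand).
Tctn3/Entpd1: CCGCCGCTAGATGGCAGCTG
Wrap53/Trp53: GGGACGGTAGGGGGCGCTCG
Dtl/Ints7: CCGCCACTAGGTGGCGCCAC
The stretch between Hjurp and Trpm8, at chr1:88277634-88277660 on the plus strand, belongs to the strongest peak of the set. No such match lay near the summit of that peak. The summit lies outside this stretch, inside Trpm8, so the bases given do not show the summit sequence.
Hjurp/Trpm8: ggggagggacgagagggagggtccgcc

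The strongest peak lay at Hjurp/Trpm8, which encode the histone chaperone that loads the centromeric histone CENP-A and a cold-sensing ion channel. Its signal, the authors' value per peak on a scale they do not state, was 582 in the optimal list, with 292 in replicate 1 and 291 in replicate 2. The summit lay 44 bp from the Trpm8 5′ end in a noncoding exon. The best match within 50 bp of the summit met the matrix at a looser threshold of 1e-04 per position but not at 1e-05, the threshold used throughout.

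Tctn3/Entpd1, encoding a protein of the ciliary transition zone and the ectonucleotidase CD39, had a signal of 536, with 280 in replicate 1 and 257 in replicate 2. Wrap53/Trp53, encoding a telomerase cofactor and the tumour suppressor p53, had 516, with 256 in replicate 1 and 261 in replicate 2. This summit was 892 bp from the Trp53 5′ end and 788 bp inside Wrap53, in an intron, so the peak does not sit on the shared start. Nae1/Car7, encoding a subunit of the enzyme that activates NEDD8 and a carbonic anhydrase, had 505, with 265 in replicate 1 and 241 in replicate 2, and its summit lay between the 5′ ends. Dtl/Ints7, encoding a substrate receptor of a CUL4 ubiquitin ligase and a subunit of the Integrator complex, had 495, with 231 in replicate 1 and 261 in replicate 2. In all 5 of these pairs the replicates gave similar values.

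The next 5 peaks had signals of 435 at Abca17/Abca3, 434 at Gm10644/Asf1b, 424 at Trove2/Uchl5, 414 at Mrps12/Sars2 and 408 at Nop14/Grk4. Asf1b is a histone chaperone, Trove2 binds misfolded noncoding RNAs and Uchl5 is a deubiquitinase of the proteasome. Mrps12 and Sars2 both serve translation in mitochondria, as a ribosomal protein and as the seryl-tRNA synthetase. Of these 5, the motif was found at Trove2/Uchl5 and Nop14/Grk4. At the other end, the weakest 5 peaks were Psme2/Rnf31 with 6.95, Fig4/Ak9 with 7.33, Zdhhc6/Vti1a with 8.82, Wdr4/Ndufv3 with 9.17 and Ikzf5/Acadsb with 11.5. Of those, Ikzf5/Acadsb was the one listed in both replicates, with 6.23 in replicate 1 and 6.65 in replicate 2.

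Peaks of the set were weaker than other peaks at coding promoters. Their median signal was 48.6, with a range of 6.95 to 582, against 63.5 for the 7686 other peaks within 1 kb of a coding 5′ end, and 76.2 for all autosomal peaks. Placed by rank among all autosomal peaks, the median was the 34.6 percentile for the set and the 44.4 percentile for other coding promoter peaks. Autosomes served as blocks, since peaks are not replicates. The median percentile differed by -8.64 points (SD 8.06 over 19 autosomes) and was lower in the set on 16 of 19 (exact two-sided sign-flip permutation test, p = 0.00032, Benjamini-Hochberg adjusted over 9 tests 0.000961). Only 17 of 475, or 3.58%, reached the strongest 10% of autosomal peaks, against 7.35% of other coding promoter peaks. The difference no longer passed among peaks with a motif (-7.40 points, 8 autosomes) or among peaks without one (-3.85 points, adjusted p = 0.0703 in the same permutation test).

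**Figure D1:**
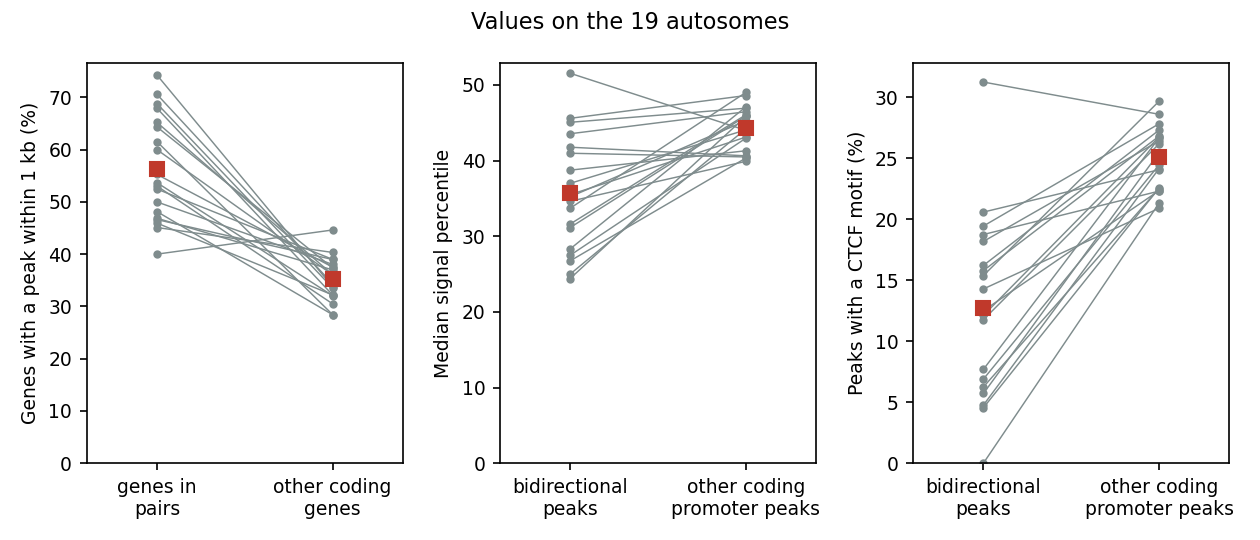
Values on each of the 19 autosomes (grey points, joined by a line) and their means (red squares), for the share of genes with a peak within 1 kb (percent), the median signal percentile of peaks, and the share of peaks with a CTCF motif (percent). Genes in divergent pairs were above other coding genes on 18 autosomes, and peaks of the set were below other coding promoter peaks on 16 autosomes in signal and on 18 in motif share.

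Genes in divergent pairs carried a peak more often than other coding genes. Of 1448 genes in pairs, 822 had an optimal summit within 1 kb of the 5′ end, or 56.8%, against 6678 of 19359 other autosomal coding genes, or 34.5%. The mean difference over autosomes was 21.0 percentage points (SD 12.3), higher on 18 of 19 (exact sign-flip permutation test, p = 7.63e-06, adjusted p = 3.43e-05). Promoter composition moved with the grouping: 84.9% of genes in pairs were CpG-rich, against 46.1% of other coding genes. CpG-rich meant at least 50% GC and an observed to expected CpG ratio of at least 0.6 over 300 bp. Among CpG-rich genes alone, 719 of 1230 in pairs had a peak, or 58.5%, against 4885 of 8918 others, or 54.8%. That difference was 3.0 points and did not pass (exact permutation p = 0.213, adjusted 0.239). Among genes that were not CpG-rich, 47.2% of 218 in pairs and 17.2% of 10441 others had a peak, a contrast given without a test. The class was set at each gene's own 5′ end, so the start of its partner could differ in class. Counting the stronger 50% of peaks alone, the excess of genes in pairs was 3.94 points, which did not pass. The 2 genes of a pair share peaks, and 20 genes stood in more than one pair.

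The CTCF motif was less frequent in the set than at other coding promoters. A match within 50 bp of the summit was found in 60 of 475 peaks, or 12.6% (Wilson interval 9.94 to 15.9%), against 1951 of 7686 other coding promoter peaks, or 25.4%, and 57% of all autosomal peaks. Windows 1 kb to either side of the set's summits held a match in 0.842% of cases. The mean difference over autosomes was -12.3 percentage points (SD 6.55), lower in the set on 18 of 19 (exact sign-flip permutation test, p = 7.63e-06, adjusted p = 3.43e-05). At the looser threshold of 1e-04 the shares were 39.6% and 52.4%, and at the stricter 1e-06 they were 2.11% and 9.81%. This difference kept its direction and its call under all 10 alternatives run for it.

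Within the set, motif and signal went together. The median signal was 154 for the 60 peaks with a match and 45.1 for the 415 without. Ordered by the 5 equal groups of signal among autosomal peaks, from weakest to strongest, a match was found in 4 of 135, 11 of 128, 13 of 124, 13 of 55 and 19 of 33 peaks of the set. The shares were 2.96%, 8.59%, 10.5%, 23.6% and 57.6%, against 6.77%, 12.9%, 20.6%, 36.4% and 67.9% at other coding promoters. Summit and motif centre were 6.5 bp apart at the median, and within 20 bp of each other in 49 of 60, or 81.7%. At other coding promoters the median was also 6.5 bp and the share 86.8%. Over all autosomal peaks with a match they were 5.5 bp and 91.7%. Of 60 matches, 30 lay on the strand of the nearer gene, and 14 lay wholly between the 5′ ends.

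**Figure D2:**
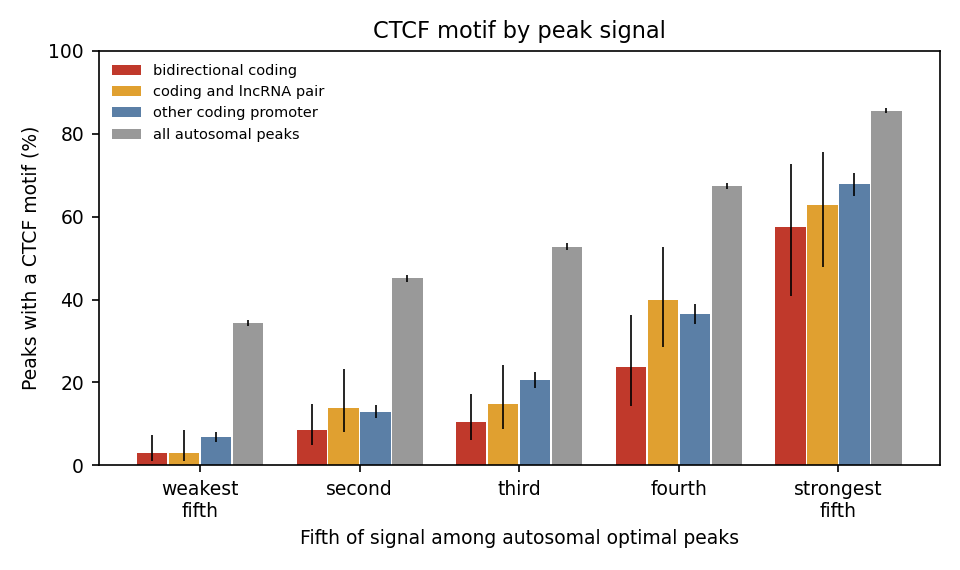
Share of peaks with a CTCF motif (percent, bars from 0, with 95% Wilson intervals for counting error) in 5 equal groups of signal among autosomal optimal peaks. Bars are the peaks at bidirectional coding promoters, at pairs of a coding gene and a long noncoding RNA, at other coding promoters, and all autosomal peaks. The share in the set is 2.96% among the weakest and 57.6% among the strongest, below that of other coding promoters in each of the 5 groups.

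Divergent pairs of a coding gene and a long noncoding RNA gave the closest comparison. Of 683 such pairs, 309 held a peak, or 45.2%, with 363 peaks outside the set. The median percentile was 34.6 in the set and 41.3 at these pairs, a difference over autosomes of -3.61 points (SD 10.1) that did not pass (exact sign-flip permutation test, p = 0.137, adjusted 0.154). It was -0.717 points (SD 11.9) without replicate 1, and -5.32 points (SD 10.2) without replicate 2, where it passed. These 2 values were not tested against each other. Among peaks without a motif the signal difference was 0.64 points. The motif was found in 12.6% of the set and in 77 of 363, or 21.2%, at these pairs. That difference was -7.56 points (SD 12.6), lower in the set on 14 of 19 autosomes (exact permutation p = 0.0189, adjusted 0.0243). Within the 5 groups of signal it was -3.69 points and no longer passed.

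Summits were denser between the 5′ ends than over the genes beyond them, yet most lay over a gene. Of 475 summits, 92 lay between the ends (19.4%), 192 on the side of the minus-strand gene and 191 on that of the plus-strand gene. The stretch between the ends made up 10.7% of the searched length and held 0.669 summits per kb, against 0.332 beyond it. Beyond the ends, 172 summits fell in untranslated exon sequence, 122 in introns, 58 in coding exons and 31 in noncoding exons. The median distance to the nearer 5′ end was 142 bp, against 256 bp for other coding promoter peaks, and the rule itself, which asks for closeness to both ends, bears on this. Median signal was 59.8 between the ends, 45.3 on the minus-strand side and 49.4 on the plus-strand side, and a motif was found in 16.3%, 9.90% and 13.6% of them. No test was run on these positions.

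**Figure D3:**
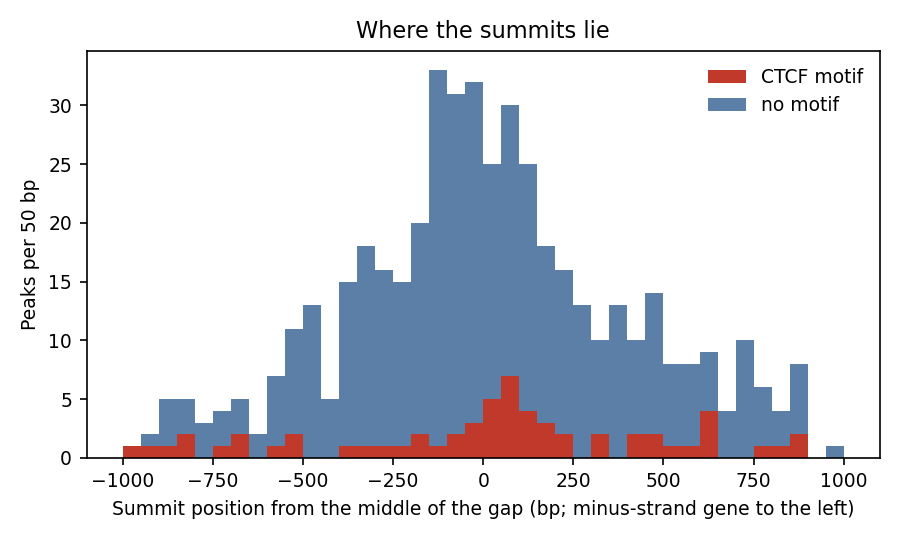
Number of summits in bins of 50 bp (bars) by distance from the middle of the gap between both 5′ ends, with the minus-strand gene to the left; red is peaks with a CTCF motif and blue those without. Of 475 summits, 192 lie on the minus-strand side, 191 on the plus-strand side and 92 between the ends.

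The edge of the rule cut through a continuous range of peaks. The 26 peaks whose farther 5′ end was over 900 bp away had a median signal of 64.4, and 8 of them had a motif. The 18 peaks just outside, up to 1100 bp, had a median of 59.1, and 4 had a motif. Just inside were Brca1/Nbr1 at 992 bp with a signal of 136 and Mtrr/Fastkd3 at 998 bp with 50.8. Just outside were Sobp/9030612E09Rik at 1001 bp with 46.4, and Lamtor2/Ubqln4 with 52.8 and Atp6v1a/Naa50 with 144, both at 1003 bp.

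The replicates differed somewhat more in the set than at other coding promoters. A replicate 1 peak was listed within 100 bp for 461 of 475 peaks and a replicate 2 peak for 448, with median signals of 29.0 and 22.7. Both were listed for 435, or 91.6%, against 94.0% of other coding promoter peaks. Across those 435 peaks of the same 2 libraries, Spearman's rho was 0.824, against 0.923 over 7226 other coding promoter peaks. The median absolute log2 ratio of the replicates, taken about the median ratio of all peaks, was 0.33 in the set and 0.27 at other coding promoters. The difference over autosomes was 0.08 (SD 0.11), higher on 14 of 19 (exact sign-flip permutation test, p = 0.0062, adjusted 0.0139). Signal moved with this: within the 5 groups of signal it was 0.05 and no longer passed.

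**Figure D4:**
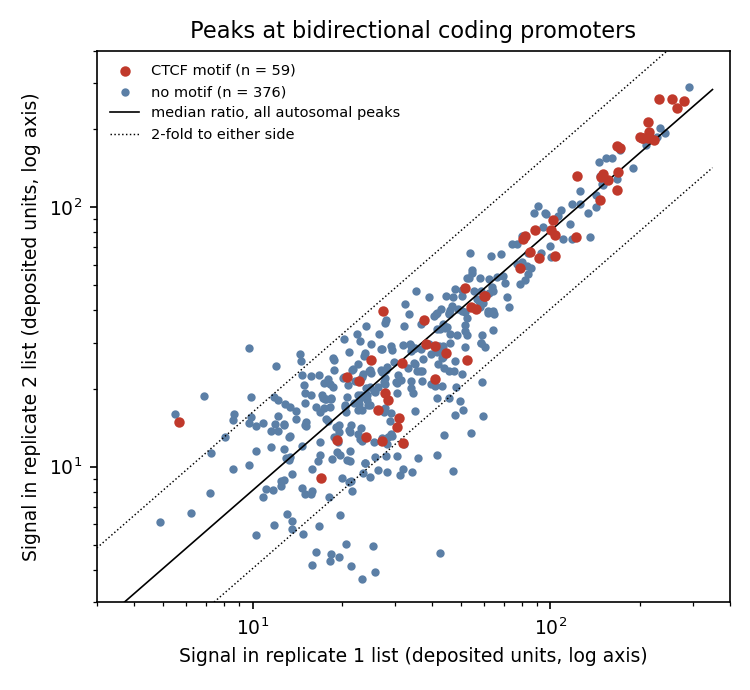
Signal of each of the 435 peaks listed in both replicates (replicate 1 on the x axis, replicate 2 on the y axis, deposited units, log axes), red with a CTCF motif and blue without. The solid line is the median ratio of all autosomal peaks and the dotted lines are 2-fold to either side. Between them lie 388 of 435 points, or 89.2%, against 92.4% of other coding promoter peaks and 94.7% of all autosomal peaks.

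Peaks were ranked by the ratio of the replicates, which exists only for the 435 listed in both. Of these, the 5 that differed most in each direction had signals of at most 51.6 in the optimal list. Peaks missing from either replicate list were not ranked. Gfer/Noxo1, encoding a sulfhydryl oxidase and an organiser of NADPH oxidase, had 42.7 in replicate 1 and 4.64 in replicate 2. Noc4l/Ddx51 had 25.8 in replicate 1 and 3.93 in replicate 2. Grik5/Zfp574, with a kainate receptor subunit, had 21.4 in replicate 1 and 4.14 in replicate 2. In the other direction, Mms19/Ubtd1, with an iron-sulfur cluster assembly factor, had 9.70 in replicate 1 and 28.7 in replicate 2. Ccs/Ccdc87, with the copper chaperone of superoxide dismutase, had 5.68 in replicate 1 and 14.9 in replicate 2 and was the one with a motif among the 5 highest in replicate 2. Uqcr10/Zmat5 held peaks of both kinds, with 23.3 in replicate 1 and 3.68 in replicate 2 at one summit, and 11.9 in replicate 1 and 24.5 in replicate 2 at the other.

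The conservative IDR list held a summit within 100 bp for 366 of 475 peaks, or 77.1%, against 82.5% of other coding promoter peaks and 86.9% of all autosomal peaks. The difference over autosomes was -5.69 percentage points (SD 9.06), lower in the set on 12 of 19 (exact sign-flip permutation test, p = 0.0148, adjusted 0.0239). It kept its direction and call under 1 of 8 alternatives, was -5.11 points and did not pass without replicate 1, and within the 5 groups of signal it was -1.82 points.

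Pairs with a peak had slightly more CpG than pairs without. The mean observed to expected CpG ratio over 300 bp was 0.853 (SD 0.206) at the 403 bound pairs and 0.792 (SD 0.260) at the 331 unbound pairs. The difference over autosomes was 0.05 (SD 0.09), higher on 15 of 19 (exact sign-flip permutation test, p = 0.0159, adjusted 0.0239), and it passed under 2 of 6 alternatives. Without replicate 1 it was 0.0465 and did not pass. With both replicates, the largest difference was 0.263, on chromosome 13, which holds 12 of the 14 pairs with histone genes. Those 14 pairs had a median ratio of 0.617, and 2 of them held a peak. Their part in the difference was not tested. In 4 equal groups of pairs by the ratio, low to high, 45.7%, 55.2%, 61.2% and 57.6% of pairs held a peak. The distance between the 5′ ends had a median of 131 bp at bound pairs and 123 bp at unbound pairs, a difference that did not pass (11.7 bp over autosomes, SD 67.1, exact permutation p = 0.461). The share bound followed no steady order in gap length: it was 56% for gaps up to 50 bp, 53.6% up to 100 bp, 56% up to 200 bp, 54.2% up to 300 bp, 62.5% up to 500 bp and 47.1% above that. A motif match anywhere in the searched window was present at 83 bound pairs, or 20.6%, and at 14 unbound pairs, or 4.23%. The remaining 320 bound pairs had none.

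Most pairs without an optimal peak still had a weak one listed. In the list called on both replicates together, 293 of 331 unbound pairs had a summit within 1 kb of both 5′ ends, or 88.5%. This was near the background of CpG-rich promoters: of other CpG-rich coding genes without an optimal peak, 87.3% had such a summit within 1 kb, and of all other coding genes without one, 46%. Of 374 unbound pairs of a coding gene and a long noncoding RNA, 267 had one, or 71.4%. The strongest such peak per unbound coding pair had a median signal of 14.9, with a range of 6.79 to 56.5, against a median of 56.7 for the strongest peak of bound pairs.

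Some bound pairs held several peaks: 329 had 1, 63 had 2, 10 had 3 and 1 had 4. The pair with 4 was Uqcrh/Lrrc41, whose first gene encodes a subunit of respiratory complex III, with signals of 141, 48.6, 45.4 and 45.5. The peaks of 48.6 and 45.4 overlap. That of 48.6 had no replicate 1 peak listed within 100 bp. That of 45.4 had 35.9 in replicate 1 and 10.8 in replicate 2 and was not in the conservative list. Casc1/Etfrf1 had 3, with 34.8, 23.6 and 51.6, and Gm10447/Shroom1 had 3, with 138, 29.2 and 42.8. The shortest gaps with a peak were 1 bp at Slc7a6os/Prmt7, 4 bp at Bag5/Apopt1 and 7 bp at Wdr54/1700003E16Rik, with signals of 35.2, 69.0 and 33.8. Among the longest were 967 bp at Smim7/Tmem38a and 935 bp at Mrpl41/Pnpla7, with 32.9 and 22.8.

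Among well-known divergent pairs, 8 met the rule and 6 of them held a peak, against 54.9% of all 734 pairs. No test was run on so few pairs. Mrps12/Sars2 had the peak of 414 named above and one of 60.1. Brca1/Nbr1, encoding a repair protein and an autophagy receptor, had 136, with 68.4 in replicate 1 and 66.0 in replicate 2. Atm/Npat, encoding the kinase of the DNA damage response and a coactivator of histone genes, had 107, with 62.2 in replicate 1 and 46.8 in replicate 2. Ndufaf2/Ercc8, encoding a complex I assembly factor and a factor of transcription-coupled repair, had 35.3. Wrap53/Trp53 is described above, and of the pairs named here it was the one with a motif at its peak. No optimal peak was listed at Col4a4/Col4a3, encoding collagen IV chains of basement membranes, or at Mcm4/Prkdc, encoding a helicase subunit and the DNA-dependent protein kinase.

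The share of pairs with a peak was near the 54.9% of all pairs in most gene groups, which were built from gene-name prefixes. It was 10 of 18 for the mitochondrial ribosome, 13 of 23 for the respiratory chain and ATP synthase, 13 of 24 for zinc finger genes and 15 of 32 for DNA replication and repair. It was 13 of 28 for splicing and RNA helicases and 10 of 21 for the cell cycle and kinetochore. The highest shares among groups of at least 10 pairs were 13 of 19 for vesicle traffic and 17 of 25 for ubiquitin and the proteasome. Next were 18 of 27 for cilia and the centrosome and 13 of 21 for the ribosome, initiation factors and tRNA synthetases. Groups can share a pair: Mrps12/Sars2 stood both among the tRNA synthetases and in the mitochondrial ribosome. Smaller groups had 2 of 4 for mitochondrial import, 3 of 5 for neuronal channels, receptors and synapse, and 2 of 4 for a list of CTCF and cohesin machinery. Neither of these last 2 bound pairs holds a gene of CTCF or cohesin itself: they are Ift80/Smc4 and Gen1/Smc6, of condensin and the SMC5/6 complex. The name prefix for collagens matched 2 pairs, and the bound one, Polk/Col4a3bp, encodes a DNA polymerase and a ceramide transfer protein.

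Strong members of these groups included Atp6v1d/Eif2s1 with 387, encoding a subunit of the vacuolar proton pump and the alpha subunit of initiation factor eIF2. Polr3a/Rps24, the catalytic subunit of RNA polymerase III and a ribosomal protein, had 384, and Hnrnpdl/Enoph1, with an RNA-binding protein, had 386. All 3 had a motif. Park7/Tnfrsf9, encoding the parkinsonism protein DJ-1 and a costimulatory receptor, had 298 between the 5′ ends and no motif, with 168 in replicate 1 and 128 in replicate 2. Sdhd/Timm8b, a subunit of succinate dehydrogenase and a mitochondrial import chaperone, had 153 and a motif. Nlgn2/Tmem256, with the adhesion protein neuroligin 2 of inhibitory synapses, had 60.6, with 42.5 in replicate 1 and no replicate 2 peak listed within 100 bp. Ift80/Smc4, with a condensin subunit, had 86.1, and Gen1/Smc6, with a subunit of the SMC5/6 complex, had 63.3.

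Histone genes stood lowest, with a peak at 2 of 14 pairs, or 14.3%. These were Bola1/Hist2h2ab with 61.1 and Hist1h2ac/Hist1h2bc with 30.8. Of the 14 pairs, 12 lie on chromosome 13, so they are neighbours and not independent. Their promoters had a median GC content of 43.8%, against 62.5% over all pairs, and among the 53 pairs under 50% GC without a histone gene 24 held a peak, or 45.3%. No test was run on the groups, and the part of composition in the histone count was not tested.

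**Figure D5:**
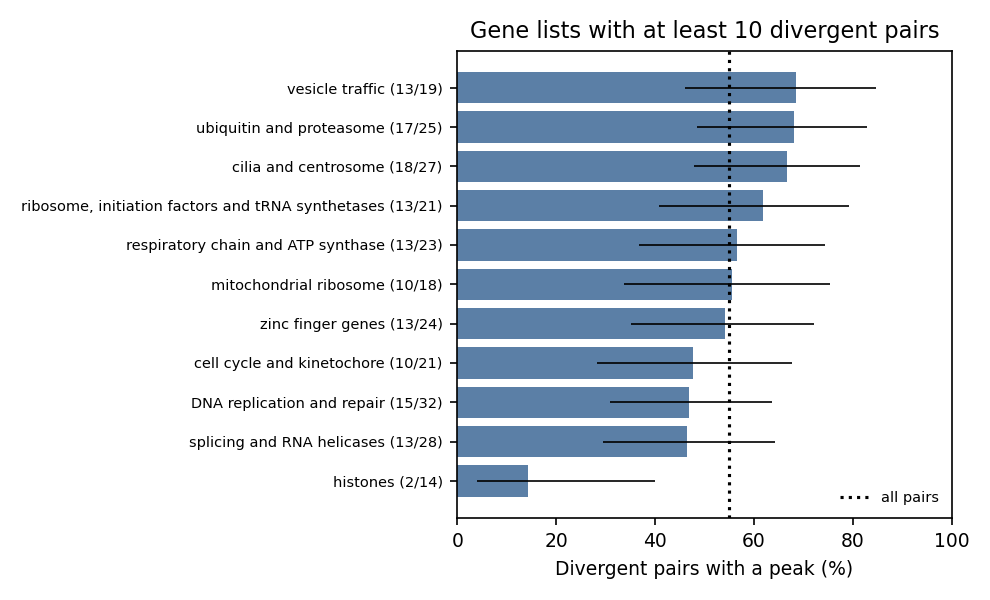
Share of divergent pairs with a peak (percent, bars from 0, 95% Wilson intervals for counting error) in gene groups with at least 10 pairs; counts of pairs with a peak and of all pairs stand beside each name. The dotted line is the 54.9% of all pairs; histones, with 2 of 14, are the lowest.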

How the data were processed

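CTCF ChIP-seq peak lists of 1 group (2 replicates) were used. The authors deposited narrowPeak lists on mm10, per the deposited text notes: 1 per replicate, 1 called on both replicates together, and an optimal and a conservative list thresholded by IDR. The deposited signal value per peak has no stated scale. The deposited −log10 q value is capped and was not used for ranking. The aligner, peak caller, versions, depth and IDR cutoff were not given in the sources used here.

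Gene 5′ ends came from GENCODE vM21 and sequence from GRCm38.p6. A 20 bp matrix was built from 2000 strong peaks on odd chromosomes to score even ones, and from 2000 on even chromosomes to score odd ones. A match needed p of 1e-05 per position within 50 bp of the summit. Peaks of different lists were matched within 100 bp. Differences were computed per autosome with at least 3 peaks, genes or pairs on each side. They were tested by an exact two-sided sign-flip permutation test over autosomes, whose smallest p is 3.81e-06, adjusted over 9 tests at 0.05. The comparison within 5 groups of signal had no such minimum. There, a group counted wherever both sides held any peak, so some groups on an autosome held few. Autosomes are blocks within the same libraries, not replicate animals, so p-values do not cover variation between mice. Scripts were tested on simulated data. Python 3.11.15, numpy 2.4.6, pandas 2.3.3, scipy 1.17.1 and matplotlib 3.10.9 were used.

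Named pairs were the 10 strongest peaks, the 5 weakest peaks and well-known pairs. The 5 most discordant peaks in each direction were taken from those listed in both replicates. Up to 3 strong members of each gene group, the 5 pairs with most peaks, extreme gaps and peaks next to the 1 kb limit were also named. Not all are printed, and some pairs are left unreported here. Members and lists were chosen with earlier results of these data known. Sex chromosomes were not analysed here.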

Additional observations from a re-analysis of the deposited data

How the results depend on the processing

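Of the 12 other settings, 10 changed 1 choice at a time, while leaving out a replicate changed the library, the joint call and the IDR filter together, and the comparison within 5 groups of signal was chosen after seeing the data. The lower motif share against other coding promoters kept its direction and call under all 10 alternatives run for it (-16.1 to -6.81 points). For the results below the cause was not tested, unless a value is given. In the stronger 50% of peaks, the excess of genes with a peak was 3.94 points and no longer passed, as did the replicate deviation of 0.0437, the motif difference from long noncoding pairs of -10.9 points and the CpG difference of 0.0201, while the conservative-list share could not show a difference there (0.0546 points), since it was 148 of 148 in the set and 3364 of 3366 at other coding promoters. With the conservative list, the replicate deviation (0.0304) and the CpG difference (0.0341) no longer passed. With gaps up to 300 bp, the conservative-list difference (-5.03 points) and the CpG difference (0.0420) no longer passed. With summits within 500 bp, the conservative-list difference (-5.58 points) no longer passed, the signal difference from long noncoding pairs (-9.35 points) now passed, and the gap difference reversed to -20.7 bp. A motif threshold of 1e-04 gave a motif difference from long noncoding pairs of -4.10 points, which did not pass. Among CpG-rich genes the excess was 3.0 points and did not pass. Among peaks with a motif, on 8 autosomes, the signal difference (-7.40 points) and the replicate deviation (0.0303) no longer passed and the conservative-list difference reversed to 3.18 points. Among peaks without one, the signal difference (-3.85 points) and the conservative-list difference (-4.19 points) no longer passed, and the signal difference from long noncoding pairs reversed to 0.64 points. Within the 5 groups of signal, the conservative-list difference (-1.82 points), the replicate deviation (0.0491) and the motif difference from long noncoding pairs (-3.69 points) no longer passed.

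Each replicate left out was replaced by the other's own strongest peaks, without IDR. The conservative-list difference was then -6.22 to -5.11 points and lost its call without replicate 1. The CpG difference was 0.0465 to 0.0628 and lost its call without replicate 1. The signal difference from long noncoding pairs was -5.32 to -0.717 points and passed without replicate 2. The conservative-list share under the conservative list, and the replicate deviation with 1 replicate, can give no value. No paired analysis was possible because there is 1 group. Unknown depth limits every statement on pairs without a peak.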

Other observations

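Short words known from promoter-binding factors were counted in the 300 bp around the middle of each gap, on both strands, and around the 5′ ends of other coding genes. The middle of a gap lies upstream of both starts, so these windows are not placed alike, and the effect on the shares was not tested. A match is a description of sequence only, and no test was run. Since pairs are mostly CpG-rich, the CpG-rich other starts are given beside all other starts. ACTACAA, a part of the motif of ZNF143, was present at 34 of 403 pairs with a CTCF peak, or 8.44%, and at 9 of 331 without one, or 2.72%. It was present at 3.14% of CpG-rich other starts, 3.23% of other starts with a CTCF peak and 3.13% of all other starts. The stretch between Nop14 and Grk4 printed above holds this word. CCGGAA, an ETS word, was present at 43.4% of pairs with a peak and 38.7% without, against 28.9% of CpG-rich other starts and 17.4% of all other starts. CCAAT, bound by NF-Y, was present at 42.9% and 45.9% of these pairs, against 33.0% of CpG-rich and 35.7% of all other starts.

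TGCGCA, part of the NRF1 motif, was present at 22.6% of pairs with a peak and 14.2% without, against 15.9% of CpG-rich and 8.90% of all other starts. GGCGGG, a Sp/KLF word, was present at 72.7% and 60.1% of these pairs, against 76.1% of CpG-rich and 44.5% of all other starts. ATGGCG, of YY1, was present at 24.3% and 23.6%, against 22.2% of CpG-rich and 13.2% of all other starts. The E-box CACGTG was present at 9.93% and 12.1%, against 10.7% of CpG-rich and 7.23% of all other starts. The CRE core GACGTC was present at 10.2% and 9.06%, against 8.68% of CpG-rich and 5.16% of all other starts. TATAAA, the TATA box word, was present at 2.48% of pairs with a peak and 6.95% without, against 3.83% of CpG-rich and 11.3% of all other starts. At other starts with a CTCF peak, CCGGAA was present at 25.7%, CCAAT at 32.9%, TGCGCA at 13.6% and GGCGGG at 64.5%. There, ATGGCG was present at 18.7%, CACGTG at 9.21%, GACGTC at 7.37% and TATAAA at 5.09%. Except for CACGTG, these shares differed from all other starts in the same direction as pairs with a peak from pairs without. Composition moved with this: 4885 of 6678 other starts with a peak were CpG-rich, against 46.1% of all other starts. Against CpG-rich other starts, the direction was opposite to that in pairs for the Sp/KLF, ETS, NRF1, YY1, CRE and TATA box words. The Sp/KLF word, for one, was at 64.5% against 76.1%. The direction was the same for the NF-Y word (32.9% against 33.0%) and the E-box (9.21% against 10.7%). The part of composition was not tested.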
